A study of Mus musculus with 15 samples.

Results

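The transition described here runs from the pre-granulocyte-macrophage progenitor (preGM) to the more mature granulocyte-macrophage progenitor (GMP) in mice that carry the Cebpa p30 allele. It rests on 6 of the 15 arrays of the series, namely 3 GMP fl/p30 and 3 preGM fl/p30 arrays, chosen by their titles. The titles of each pair of stages share an identifier, read as that of the animal, and the animals are called 1, 2 and 3 after the replicate numbers in the titles. All groups were bone marrow cells of female C57BL/6 mice, sorted 3 weeks after conditional knockout and profiled on Affymetrix Mouse Gene 1.0 ST arrays. The series looked for deregulated genes in progenitors of mice that do not yet have leukaemia.

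GMP fl/p30 and preGM fl/p30 came from mice labelled cebpa fl/p30; Mx1Cre. GMP fl/+ came from mice labelled cebpa fl/+; Mx1Cre, and preGM +/+ from mice whose genotype label is spelt cebpa +/+:Mx1Ce. These last 2 groups, of 3 arrays each and from separate animals, gave the same step in control mice. The 3 GMP fl/BRM2 arrays (cebpa fl/BRM2; Mx1Cre) entered only the estimate of the spread. Mx1Cre is driven by the interferon-inducible Mx1 promoter, it acts in many blood and non-blood cells, and all groups used here carry it. Which agent induced it is not stated. The GMP and preGM controls differ in genotype, so in the control step the stage and the loss of 1 Cebpa copy cannot be told apart.

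Both populations were gated as cKit-positive cells without lineage markers, Sca1, CD150 and CD41. PreGMs also lacked FcgRII and Endoglin, and GMPs carried FcgRII.

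C/EBPα is the transcription factor that takes multipotent progenitors into the granulocyte and monocyte lineages, and in mice that lack it in adult marrow no GMPs form. Its messenger RNA gives a full-length protein and, from an internal start codon, the shorter p30 isoform, which lacks the amino-terminal activation domain that restrains the cell cycle. The p30 allele makes the short isoform alone. PreGMs still hold messenger RNA of lymphoid and multipotent genes, and GMPs are the cells in which the enzymes of the primary (azurophil) granules are first made in quantity. Neutrophils, monocytes, basophils and mast cells can all arise from cells inside the GMP gate.

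All values are deposited log2 expression levels, and a log2 difference is GMP minus preGM, given with its standard error (SE). The median level of an array lay between 6.03 and 6.23, so levels below that range are called dim, and no fold change is given where the lower group is dim. A gene counted as called where limma's moderated test gave an adjusted p under 0.05, fitted over all 15 arrays with the animal as a random block and adjusted by Benjamini-Hochberg over 19937 genes. Arrays have no read depth, and the number of animals limits the precision. The arrays hold bulk RNA, in which fewer cells of a type and less RNA per cell cannot be told apart.

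The libraries were uneven. Within groups the standard deviations (SD) had a root mean square of 0.269 in GMP fl/p30 and 0.211 in preGM fl/p30, against 0.319 in GMP fl/+ and 0.165 in preGM +/+. Animal 1 stood apart: its GMP minus preGM differences correlated across genes with those of animal 2 at r = 0.437 and with those of animal 3 at r = 0.279, while animals 2 and 3 gave r = 0.575 (genes are not independent replicates). The median absolute difference between the stages was 0.22 in animal 1, 0.15 in animal 2 and 0.16 in animal 3.

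In p30 mice, 681 of 19937 genes changed between the stages (3.42%), 366 higher in GMP fl/p30 (1.84%) and 315 lower (1.58%). The largest rises were those of Hp, Igsf6, Elane, Sgms2 and Anxa3, and the largest falls were those of Dntt, Adgrl4, Trgv1, Flt3 and Myct1. Of the calls, 680 had the same sign in all 3 animals, as did 38.3% of all genes tested, and 665 had arrays that did not overlap between the stages, as did 17.2% of all genes. A log2 difference of at least 1 was reached by 143 called genes (0.717%), 86 of them higher and 57 lower. The median difference of all genes was 0.03.

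The count depended on the animal block and on single arrays. Without the block 128 genes were called. With each array centred on its median 434 were called, 37.8% of them higher, where 53.7% were higher as deposited. Leaving out the GMP array of animal 1 left 164 calls and leaving out its preGM array 103. The count was 363 without the GMP array and 365 without the preGM array of animal 2, and 722 without the GMP array and 333 without the preGM array of animal 3. Both arrays of an animal left out gave 84 calls without animal 1, 250 without 2 and 362 without 3. Among the 106 genes named under the rule for named genes 70 were called, and 22 of these kept the call in all 9 of these leave-outs.

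The cells' labels were checked against their markers first. Fcgr3 and Fcgr2b encode the Fcγ receptors III and IIb, which the FcgRII antibody of such sorts commonly binds, so they check the sort and are not a finding. Fcgr3 had log2 levels of 9.07, 9.22 and 9.61 in the GMP fl/p30 arrays of animals 1, 2 and 3, against 6.91, 7.18 and 6.75 in their preGM arrays. The groups did not overlap, and the log2 difference was 2.36 ± 0.18 (adjusted p = 1.08e-05). Fcgr2b differed by 0.98 ± 0.26 on the log2 scale and did not pass the test (adjusted p = 0.0555). Eng, which encodes endoglin and was gated out only in preGMs, differed by -0.37 ± 0.12 (adjusted p = 0.0994), and Slamf1, the gene of CD150, fell by 0.69 at dim levels in both stages (adjusted p = 0.0495), a call lost in all 9 leave-outs. Kit, present on both populations, differed by 0.01 ± 0.13, and Itga2b, the gene of CD41, by 0.40 ± 0.21 (adjusted p = 0.981 and 0.321).

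Of 10 GMP markers 4 rose (Elane, Ms4a3, Fcgr3 and Gfi1), 0 fell, and 9 had differences above 0. Among these Fcgr3 only repeats the check of the sort. Over all genes 1.84% were called higher and 1.58% lower, and the median difference was 0.03. Mpo, the gene of myeloperoxidase, was near the top of the scale in both stages, with log2 levels of 12.58, 12.86 and 13.09 in GMP fl/p30 against 12.44, 12.69 and 12.47 in preGM fl/p30, overlapping. Irf8, a transcription factor of monocytes and dendritic cells, had 6.82, 6.995 and 7.96 in GMP fl/p30 against 7.54, 7.45 and 7.43 in preGM fl/p30 on the log2 scale, and its groups overlapped. Of 8 measured markers of preGMs and earlier cells, Flt3, Meis1 and Hlf fell and Gata2 rose. Cd34, another of these, differed by -0.27 on the log2 scale (adjusted p = 0.382). Of 7 measured genes of the lineage depletion antibodies limma called 0, and 0 were below an unadjusted p of 0.05, against 18.6% of all genes.

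**Figure D1:**
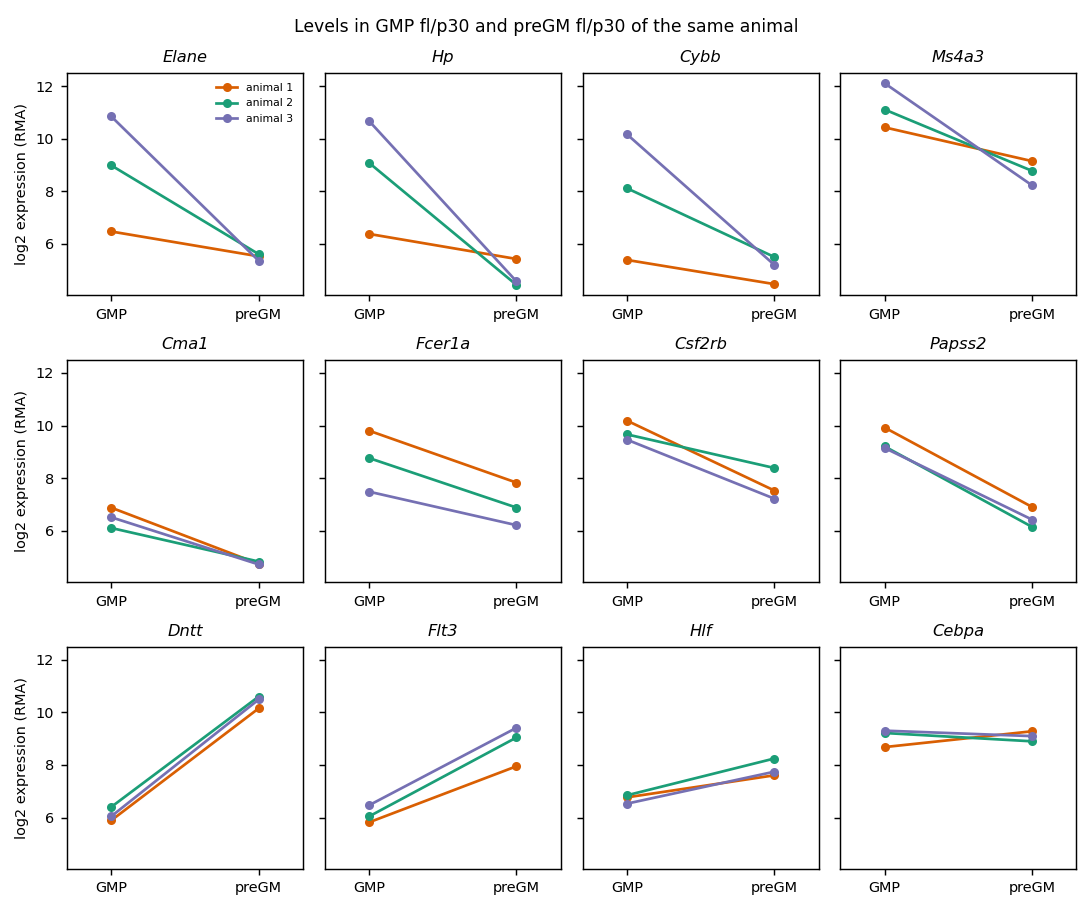
Log2 expression level (RMA, vertical axis) of 12 genes in the GMP fl/p30 array (left) and the preGM fl/p30 array (right) of each animal, with a line joining the arrays of 1 animal. The lines of Elane, Hp and Cybb fan out at the GMP end, with animal 1 lowest, while those of Dntt, Flt3 and Papss2 run side by side and those of Cebpa cross.

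Hp and Elane were among the largest rises, and the size of both differed between the animals. Elane encodes neutrophil elastase, a serine protease of the primary granules. Its log2 level was 6.47, 8.99 and 10.85 in GMP fl/p30 of animals 1, 2 and 3, against 5.52, 5.61 and 5.36 in preGM fl/p30. The preGM arrays lay close together at dim levels, the GMP array of animal 1 lay just above them, and the groups did not overlap. The log2 difference was 3.27 ± 0.75 (adjusted p = 0.0328), and per animal it was 0.95, 3.38 and 5.49.

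The same order of animals held for Hp, which encodes the haemoglobin-binding protein haptoglobin. Its log2 level was 6.38, 9.08 and 10.67 in GMP fl/p30 against 5.42, 4.44 and 4.57 in preGM fl/p30, and the log2 difference was 3.90 ± 0.76 (adjusted p = 0.0165). Hp thus had its highest preGM level and its lowest GMP level in the same animal. Ms4a3, a membrane protein gene that marks committed granulocyte-monocyte progenitors, had log2 levels of 10.43, 11.11 and 12.11 in GMP fl/p30 against 9.15, 8.77 and 8.22 in preGM fl/p30. Ms4a3 was well above the array medians in both stages, the groups did not overlap, and it was 5.66-fold higher in GMP fl/p30 (log2 difference 2.50 ± 0.36, adjusted p = 0.00233). Its call held in all 9 leave-outs, with an adjusted p of at most 0.0331. Those of Elane and Hp were lost in 7 and 6 of the 9, with adjusted p up to 0.183 and 0.114; both were lost without any 1 of the 3 preGM arrays or the GMP array of animal 2, and Elane also without the GMP array of animal 3.

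Of 18 primary granule genes 4 rose and 0 fell, against 1.84% of all genes called higher and 1.58% called lower. These shares are the background for the list counts that follow. The list's median log2 difference was 0.61, where the median of all genes was 0.03. The median within animals was 0.14 in animal 1, 0.38 in animal 2 and 1.22 in animal 3. Igsf6, an immunoglobulin superfamily gene of myeloid cells, differed by 3.28 ± 0.59 on the log2 scale (adjusted p = 0.00979), and Clec12a, an inhibitory C-type lectin receptor of myeloid cells, by 1.70 ± 0.40 (adjusted p = 0.0345). Prtn3 and Ctsg, the genes of proteinase 3 and cathepsin G, had log2 differences of 1.499 and 1.21 that did not pass (adjusted p = 0.0812 and 0.0721). Leaving out the GMP array of animal 1 gave 7 called members, and leaving out its preGM array 1; each of the other 4 arrays left out gave 2.

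Of 22 secondary granule and late neutrophil genes 3 rose (Hp, Mmp8 and Ltb4r1) and 0 fell. Their median log2 difference was -0.01 in animal 1, 0.41 in animal 2 and 1.33 in animal 3. Mmp8, neutrophil collagenase, ran against that order, with log2 levels of 7.09, 5.56 and 5.58 in GMP fl/p30 against 4.69, 4.49 and 4.40 in preGM fl/p30, so that animal 1 was highest (log2 difference 1.55 ± 0.32, adjusted p = 0.02). Ltb4r1, the leukotriene B4 receptor of neutrophils, differed evenly, by 0.86, 0.74 and 0.68 on the log2 scale. The 3 calls became 0 without the preGM array of animal 1 or of animal 2, 1 without the GMP array of animal 2, and 2 without the GMP array of animal 1 or the preGM array of animal 3; limma called 3 without the GMP array of animal 3. Without the animal block, and in the 6 fl/p30 arrays with or without a fixed block, limma called 0 of the 22. In the fit with all arrays and the block 10 were below an unadjusted p of 0.05, against 18.6% of all genes.

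Further genes of the 15 largest rises shared the order. Sgms2 (a sphingomyelin synthase), Anxa3 (annexin A3, abundant in neutrophil granules), Clec5a (a myeloid C-type lectin receptor) and Olr1 (a scavenger receptor for oxidised lipoprotein) rose by log2 differences of 3.24, 3.19, 3.01 and 2.27. In that order the adjusted p was 0.0193, 0.0133, 0.0323 and 0.0457, and the calls held in 3, 4, 1 and 2 of the 9 leave-outs. Their mean preGM levels were dim, so the sizes are uncertain. Among the 15 largest rises the difference was smallest in animal 1 for 11 and largest in animal 3 for 12. Over all 366 genes called higher this order was not general: animal 1 had the largest difference for 187, animal 2 for 39 and animal 3 for 140.

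The phagocyte NADPH oxidase makes superoxide from a membrane core, encoded by Cybb and Cyba, that needs cytosolic subunits and the small GTPase Rac2. Of its 6 measured genes 3 rose and 0 fell, against 1.84% of all genes called higher. Cybb had log2 levels of 5.39, 8.12 and 10.17 in GMP fl/p30 against 4.47, 5.50 and 5.20 in preGM fl/p30. The GMP array of animal 1 fell within the range of the preGM arrays, so the groups overlapped (log2 difference 2.84 ± 0.73, adjusted p = 0.0481). Cyba had log2 levels of 8.68, 8.81 and 10.07 in GMP fl/p30 against 7.36, 8.28 and 7.64 in preGM fl/p30, and Rac2 10.94, 10.99 and 10.82 against 9.99, 10.45 and 9.70. Neither overlapped, and both were higher in GMP fl/p30 in all 3 animals, by 2.69-fold and 1.82-fold (adjusted p = 0.0457 and 0.0295). With arrays centred on their medians or without the animal block limma called 0 of the 6. Without 1 array it called 2 (preGM of animal 2), 1 (GMP of animal 1 or 3) or 0 (GMP of animal 2, preGM of animal 1 or 3).

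**Figure D2:**
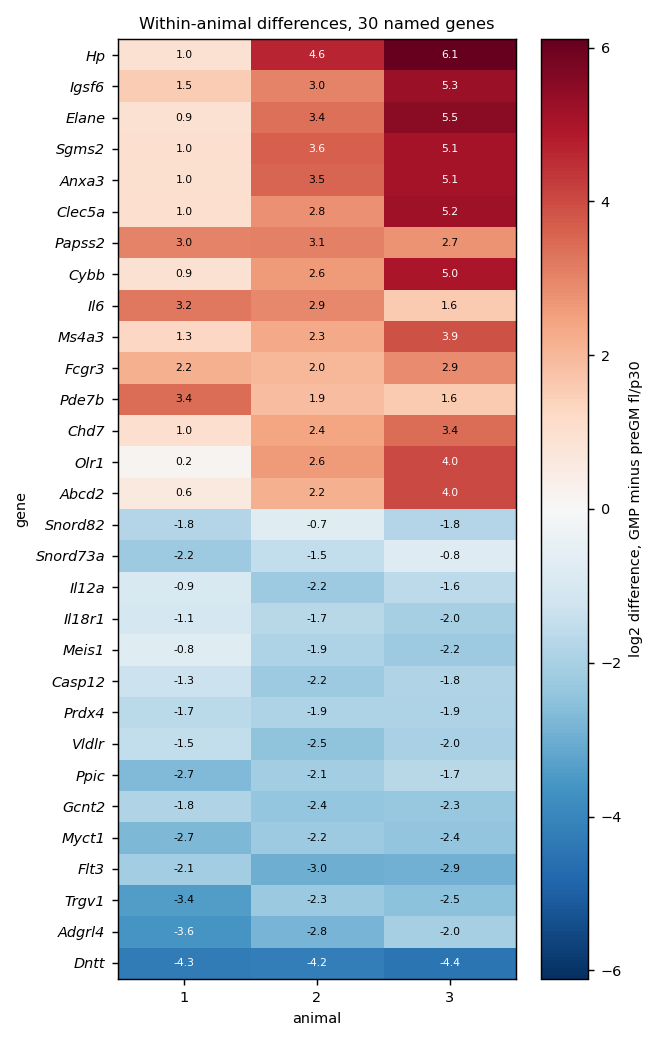
Within-animal log2 differences (GMP fl/p30 minus preGM fl/p30) of the 15 genes with the largest called rises and the 15 with the largest called falls, 1 column per animal; red is higher and blue lower in GMP fl/p30. Hp ran from 0.95 in animal 1 to 6.11 in animal 3, while Dntt lay between -4.45 and -4.20 in all 3.

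Of 19 measured genes of mast cells, basophils and eosinophils 9 rose, 0 fell and 10 did not pass, against 1.84% of all genes called higher. Without the animal block 4 were called higher, and 3 in the 6 fl/p30 arrays with a fixed block. Over the list the median log2 difference was 0.60 over the animals and 0.82, 0.67 and 0.52 in animals 1, 2 and 3. Arrays did not overlap for 13 of the 19, with GMP fl/p30 above, against 9.44% of all genes. The mean deviation of the list's genes from their own 15-array means was 0.40, 0.28 and 0.29 in GMP fl/p30 against -0.30, -0.43 and -0.46 in preGM fl/p30, and it did not overlap.

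Cma1, the chymase of connective tissue mast cells, had log2 levels of 6.88, 6.10 and 6.51 in GMP fl/p30 against 4.74, 4.83 and 4.72 in preGM fl/p30. The 3 preGM arrays were dim and nearly equal and all GMP arrays lay above them (log2 difference 1.74 ± 0.18, adjusted p = 0.00021). Signal shared with Mcpt4, a close paralogue that was also called, was not tested. Fcer1a, the IgE-binding chain of the high-affinity IgE receptor, had log2 levels of 9.80, 8.76 and 7.48 in GMP fl/p30 against 7.83, 6.88 and 6.21 in preGM fl/p30. Here animal 1 was highest in both stages, the groups overlapped, and every animal had more in its GMPs, by 3.28-fold in the fit (adjusted p = 0.0322).

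Hdc encodes the enzyme that makes histamine, and its log2 level was 6.65, 7.26 and 8.74 in GMP fl/p30 against 5.61, 5.95 and 5.81 in preGM fl/p30 (log2 difference 1.76 ± 0.31, adjusted p = 0.00923). Csrp3, a LIM protein gene best known from muscle, was 2.32-fold higher (log2 difference 1.21 ± 0.18, adjusted p = 0.00285). Gata2, the transcription factor shared by stem, mast and basophil cells, had log2 levels of 9.76, 9.38 and 8.70 in GMP fl/p30 against 8.51, 8.47 and 8.47 in preGM fl/p30; the stages did not overlap (log2 difference 0.80 ± 0.20, adjusted p = 0.0422). The list kept 3 calls without the preGM array of animal 1, 4 without its GMP array, 5 without the preGM array of animal 3, 6 without either array of animal 2, and 9 without the GMP array of animal 3. The calls of Cma1 and Csrp3 held in all 9 leave-outs, that of Fcer1a in 2 (adjusted p up to 0.283).

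Il6, Papss2, Pde7b and the receptor gene Csf2rb rose strongly in all 3 animals, animal 1 included. Il6, the gene of the cytokine interleukin 6, had log2 levels of 9.84, 8.86 and 7.89 in GMP fl/p30 against 6.61, 5.94 and 6.31 in preGM fl/p30. All GMP arrays lay above all preGM arrays, animal 1 the farthest, and Il6 was 5.97-fold higher (log2 difference 2.58 ± 0.37, adjusted p = 0.00225). The preGM levels lay near the array medians, so that size is uncertain. Its call held in 8 of the 9 leave-outs and was lost without both arrays of animal 1 (adjusted p = 0.0601). Papss2, an enzyme that makes the sulphate donor of sulphotransferases, had log2 levels of 9.92, 9.20 and 9.15 in GMP fl/p30 against 6.90, 6.14 and 6.42 in preGM fl/p30, with per-animal differences of 3.02, 3.06 and 2.73. Its 7.65-fold rise was nearly the same in the 3 animals (adjusted p = 0.00063) and held in all 9 leave-outs. Pde7b, a phosphodiesterase of cyclic AMP, rose 4.95-fold (adjusted p = 0.000629), and in animal 1 the most.

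Of 20 cytokine receptor genes 4 rose and 2 fell, against 1.84% of all genes called higher and 1.58% called lower. Csf2rb encodes the common β chain of the receptors for GM-CSF, interleukin 3 and interleukin 5, and Csf2rb2 its mouse paralogue, which serves interleukin 3 alone. Csf2rb had log2 levels of 10.19, 9.66 and 9.46 in GMP fl/p30 against 7.53, 8.39 and 7.22 in preGM fl/p30, and Csf2rb2 9.98, 9.07 and 8.24 against 7.05, 7.45 and 6.38. Both were apart in all arrays, 4.17-fold and 4.39-fold higher (adjusted p = 0.00025 and 0.00159), and whether their probe sets share signal, as close paralogues can, was not tested. The members that fell were Flt3, described below with the multipotent genes, and Il18r1, an interleukin 18 receptor chain, with a log2 difference of -1.62 ± 0.22 (adjusted p = 0.00171). Without both arrays of animal 1 only 1 receptor gene was called higher, and without the preGM array of that animal 2.

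Of 20 chemokine receptor, selectin and integrin genes 6 rose and 1 fell, against 1.84% of all genes called higher and 1.58% called lower. The list's median log2 difference was 0.36. Cx3cr1, the fractalkine receptor of monocytes, had log2 levels of 9.43, 8.45 and 8.05 in GMP fl/p30 against 7.30, 6.37 and 6.62 in preGM fl/p30. It did not overlap and was 3.67-fold higher (adjusted p = 0.000833), in all 9 leave-outs. Itgb2, the β2 integrin chain CD18, was 2.26-fold and Itgax, its partner CD11c, 1.97-fold higher (adjusted p = 0.00468 and 0.0111), while Ccr1, a chemokine receptor of myeloid cells, had log2 levels of 7.11, 6.18 and 5.76 in GMP fl/p30 against 5.37, 5.43 and 4.40 in preGM fl/p30. The 6 rises became 2 without either array of animal 1, 3 without the GMP array of animal 2, 4 without the preGM array of animal 3, and 5 or 6 without either of the others.

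Of 19 monocyte genes 3 rose (F13a1, Cx3cr1 and Ahnak) and 0 fell, against 1.84% of all genes called higher. Of 16 dendritic cell genes Itgax rose and Flt3 fell. F13a1, which encodes the catalytic subunit of factor XIII, had log2 levels of 6.01, 6.31 and 8.35 in GMP fl/p30 against 5.25, 4.70 and 5.43 in preGM fl/p30, with animal 3 above the others (adjusted p = 0.0457), and it lost its call in all 9 leave-outs, with adjusted p up to 0.221. The median log2 difference of the monocyte list was -0.06 in animal 1, 0.37 in animal 2 and 0.87 in animal 3. Of 20 innate receptor genes 2 rose and 1 fell: the signalling adaptors Fcer1g and Tyrobp were 1.73-fold and 1.36-fold higher (adjusted p = 0.0379 and 0.019), while Tlr7, an endosomal sensor of RNA, differed by -0.88 ± 0.11 at dim levels (adjusted p = 0.00115).

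**Figure D3:**
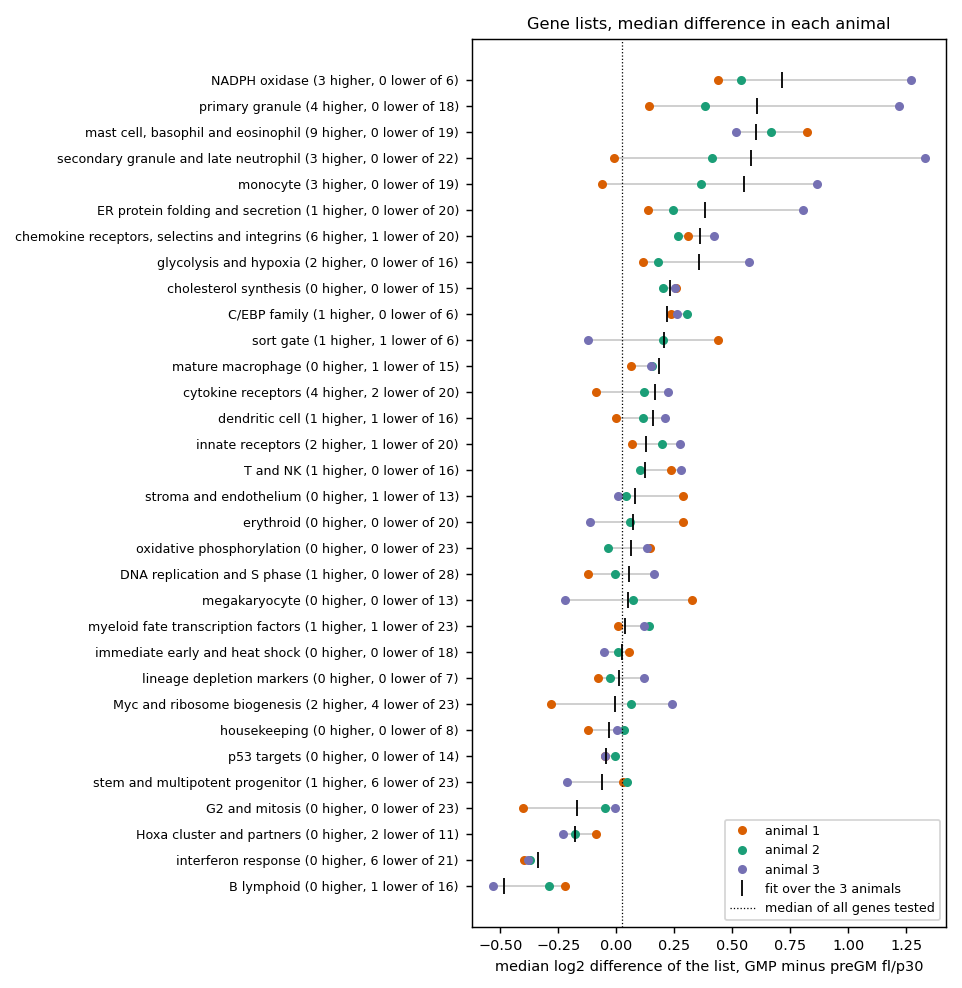
Median log2 difference (GMP fl/p30 minus preGM fl/p30, horizontal axis) of each of 32 gene lists in each animal (dots) and in the fit (bars), with the number of members called higher and lower of those measured; the dotted line is the median of all genes, 0.03. Primary granule genes spread from 0.14 in animal 1 to 1.22 in animal 3, while the interferon response list lay between -0.40 and -0.37 in all 3.

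Promoter windows were searched for C/EBP and GATA motifs, since factors of both families act in these cells. The C/EBP motif was spelt TTNNGCAA and the GATA motif AGATAA, both read on both strands, in windows of 250 bases before to 50 bases after each transcription start from RefSeq (GRCm38.p6). The C/EBP motif stood in 13.25% of 415 windows of genes called higher in GMP fl/p30 (95% exact binomial interval 10.14% to 16.9%), in 8.497% of 306 windows of genes called lower (5.625% to 12.2%), and in 9.752% of the 19176 windows of all genes tested. The GATA motif stood in 8.916% of windows of genes called higher, in 7.516% of those called lower and in 9.246% of all. The windows came from 290 genes called higher, 237 called lower and 15613 of the 19937 genes tested. Windows of 1 gene can overlap but were counted as separate. The intervals thus cover counting error only and can be too narrow even for that. A match is a description of letters and not a site.

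The 250 bases before the start are printed for 4 called genes, chosen after their values were seen, because their windows hold such a match: Il6 and Clec12a (C/EBP), Fcer1a (C/EBP and GATA) and Dntt (GATA). Each reads 5′ to 3′ on the gene's own strand, and the capitals mark the match. Il6 lies on the plus strand at chr5:30012864-30013113, Clec12a on the plus strand at chr6:129349994-129350243, Fcer1a on the minus strand at chr1:173227230-173227479, and Dntt on the plus strand at chr19:41029025-41029274.
Il6: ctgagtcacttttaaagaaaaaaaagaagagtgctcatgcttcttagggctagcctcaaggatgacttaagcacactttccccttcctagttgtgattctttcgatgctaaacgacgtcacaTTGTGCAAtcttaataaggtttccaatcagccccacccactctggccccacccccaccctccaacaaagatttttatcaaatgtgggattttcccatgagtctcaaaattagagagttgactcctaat
Clec12a: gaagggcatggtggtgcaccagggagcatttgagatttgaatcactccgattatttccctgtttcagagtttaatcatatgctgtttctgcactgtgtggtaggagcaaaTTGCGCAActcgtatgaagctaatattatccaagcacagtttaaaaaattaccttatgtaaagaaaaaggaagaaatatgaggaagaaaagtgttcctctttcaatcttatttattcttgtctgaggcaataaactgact
Fcer1a: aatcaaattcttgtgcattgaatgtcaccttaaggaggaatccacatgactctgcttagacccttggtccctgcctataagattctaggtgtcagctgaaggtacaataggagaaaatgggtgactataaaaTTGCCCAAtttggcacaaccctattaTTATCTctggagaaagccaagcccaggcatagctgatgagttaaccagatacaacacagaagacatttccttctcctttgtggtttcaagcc
Dntt: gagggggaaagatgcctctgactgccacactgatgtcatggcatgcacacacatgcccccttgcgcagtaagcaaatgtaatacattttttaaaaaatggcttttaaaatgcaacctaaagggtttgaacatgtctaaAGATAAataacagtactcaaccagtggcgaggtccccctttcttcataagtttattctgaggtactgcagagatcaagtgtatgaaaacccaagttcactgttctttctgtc
The C/EBP match began 128 bases before the start in Il6, 140 in Clec12a and 118 in Fcer1a. The GATA match began 92 bases before the start in Fcer1a and 112 in Dntt. Both matches of Fcer1a read the motif on the opposite strand, so their capitals are its reverse complement.

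Of the C/EBP family 1 of 6 measured genes rose, Cebpe, and 0 fell, against 1.84% of all genes called higher. Cebpa had log2 levels of 8.68, 9.22 and 9.31 in GMP fl/p30 of animals 1, 2 and 3, against 9.28, 8.90 and 9.10 in preGM fl/p30. The groups overlapped, animal 1 had less in its GMPs and the others had more, and the log2 difference was -0.03 ± 0.16 (adjusted p = 0.955); the sign turned when either array of animal 1 was left out (0.176 without its GMP array and 0.085 without its preGM array). The array does not tell the p30 isoform from the full-length one. Cebpe, the family member that drives late granulocyte genes, had log2 levels of 7.77, 7.78 and 9.23 in GMP fl/p30 against 6.43, 6.41 and 7.15 in preGM fl/p30. It did not overlap and was 3.03-fold higher (adjusted p = 0.0387), a call that none of the 9 leave-outs kept (adjusted p up to 0.27). Cebpb, Cebpd, Cebpg and Ddit3 had log2 differences of 0.19, 0.61, -0.28 and 0.25, with adjusted p between 0.088 and 0.395.

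Of 23 transcription factors of myeloid fate 1 rose and 1 fell, against 1.84% of all genes called higher and 1.58% called lower. Gfi1, a repressor needed for neutrophil differentiation, had log2 levels of 6.40, 6.49 and 6.62 in GMP fl/p30 against 5.89, 5.63 and 6.14 in preGM fl/p30. Its groups were apart, but the preGM mean was dim and the GMP levels lay near the dim range (log2 difference 0.61 ± 0.14, adjusted p = 0.0303). Myc had log2 levels of 10.85, 11.38 and 11.23 in GMP fl/p30 against 11.55, 11.72 and 11.53 in preGM fl/p30, lower in all 3 animals and by 1.36-fold in the fit (adjusted p = 0.0387). Chd7, a chromatin remodeller outside this list and among the 15 largest rises, was 4.88-fold higher (adjusted p = 0.0113); all 29 of its other probe sets differed in the same direction, by 0.41 to 3.53 on the log2 scale. The call of Gfi1 was lost in 6 of 9 leave-outs, that of Myc in 7, and that of Chd7 in 2.

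Dntt had the largest fall of the named genes, and it was nearly equal in the 3 animals. It encodes terminal deoxynucleotidyl transferase, which adds bases to antigen receptor joints in lymphoid precursors. Its log2 level was 5.89, 6.40 and 6.05 in GMP fl/p30 of animals 1, 2 and 3, against 10.15, 10.60 and 10.49 in preGM fl/p30. The groups were far apart, the GMP levels lay near or below the array medians, and the log2 difference was -4.30 ± 0.23 (adjusted p = 2.98e-07), with -4.26, -4.20 and -4.45 per animal. The call held in all 9 leave-outs, with an adjusted p of at most 0.00012.

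Flt3, the receptor tyrosine kinase of multipotent and lymphoid-primed progenitors, had log2 levels of 5.82, 6.04 and 6.47 in GMP fl/p30 against 7.95, 9.05 and 9.42 in preGM fl/p30 (log2 difference -2.70 ± 0.22, adjusted p = 2.27e-05). Trgv1, a variable segment of the T cell receptor γ locus, had 5.24, 5.81 and 5.83 in GMP fl/p30 against 8.66, 8.09 and 8.35 in preGM fl/p30 on the same scale (adjusted p = 1.52e-06). Neither gene overlapped, and the GMP levels lay near or below the array medians. Myct1, a gene of haematopoietic stem cells and endothelium, and Gcnt2, which makes branched I-antigen glycans, differed by -2.44 ± 0.26 and -2.17 ± 0.16 on the log2 scale (adjusted p = 0.00025 and 1.08e-05).

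Of 23 stem and multipotent progenitor genes 6 fell and 1, Gata2, rose, against 1.58% of all genes called lower and 1.84% called higher. The list's median log2 difference was -0.06, and 16 members did not pass. Hlf, a transcription factor of stem cells, had log2 levels of 6.77, 6.85 and 6.53 in GMP fl/p30 against 7.61, 8.25 and 7.74 in preGM fl/p30, apart in all arrays and 2.22-fold lower (adjusted p = 0.00063). Meis1, the homeobox partner of Hoxa proteins, had 7.93, 7.59 and 7.37 in GMP fl/p30 against 8.69, 9.47 and 9.61 in preGM fl/p30 on the log2 scale and was 3.09-fold lower (adjusted p = 0.0189), with the smallest difference in animal 1. Meis1 lost its call in 8 of 9 leave-outs (adjusted p up to 0.119), and the falls numbered 4 without the GMP array of animal 3 and 3 without any other array. Hoxa5 fell with Meis1 in the Hoxa list, 2 of 11 members, with a log2 difference of -0.70 ± 0.15 at dim levels (adjusted p = 0.0239).

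Of 16 B lymphoid genes only Dntt was called, but 9 had arrays that did not overlap with GMP fl/p30 below, against 7.72% of all genes. The list's mean deviation was -0.31, -0.19 and -0.27 in GMP fl/p30 against 0.22, 0.42 and 0.31 in preGM fl/p30. Other large falls were Adgrl4, an adhesion receptor first known from endothelium, Vldlr, a lipoprotein receptor, Prdx4, a peroxiredoxin of the secretory pathway, Ppic, a cyclophilin, Casp12 and Il12a, the α chain of interleukin 12. Adgrl4 had log2 levels of 7.02, 8.44 and 8.96 in GMP fl/p30 against 10.63, 11.29 and 10.97 in preGM fl/p30, 7.08-fold lower (adjusted p = 0.000523) and most so in animal 1. The other 5 differed by between -2.17 and -1.59 on the log2 scale.

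Of 21 measured interferon response genes, which encode antiviral sensors and effectors, 6 fell, 0 rose and 15 did not pass, against 1.58% of all genes called lower. Without the animal block 1 was called lower, and 1 in the 6 fl/p30 arrays with a fixed block. Over the list the median log2 difference was -0.40, -0.37 and -0.38 in animals 1, 2 and 3. Rtp4, a chaperone of receptors, had log2 levels of 8.49, 9.24 and 7.98 in GMP fl/p30 against 10.07, 10.06 and 9.59 in preGM fl/p30, apart in all arrays and 2.53-fold lower (adjusted p = 0.0387). Ifih1, the cytosolic RNA sensor MDA5, had 7.24, 7.71 and 8.15 in GMP fl/p30 against 8.55, 8.60 and 8.64 in preGM fl/p30 on the log2 scale (adjusted p = 0.0485). Both were above the dim range in every array. Ifit3 and Mx2, antiviral effectors, differed by -1.10 ± 0.23 and -0.94 ± 0.15 at lower levels (adjusted p = 0.0213 and 0.00504). The 6 calls became 0 without the GMP array of animal 1, 1 without its preGM array or the preGM array of animal 2, 4 without the GMP array of animal 2, and 5 without either array of animal 3. The list's mean deviation was -0.03, 0.29 and 0.02 in GMP fl/p30 and 0.41, 0.82 and 0.40 in preGM fl/p30, with animal 2 highest in both stages.

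**Figure D4:**
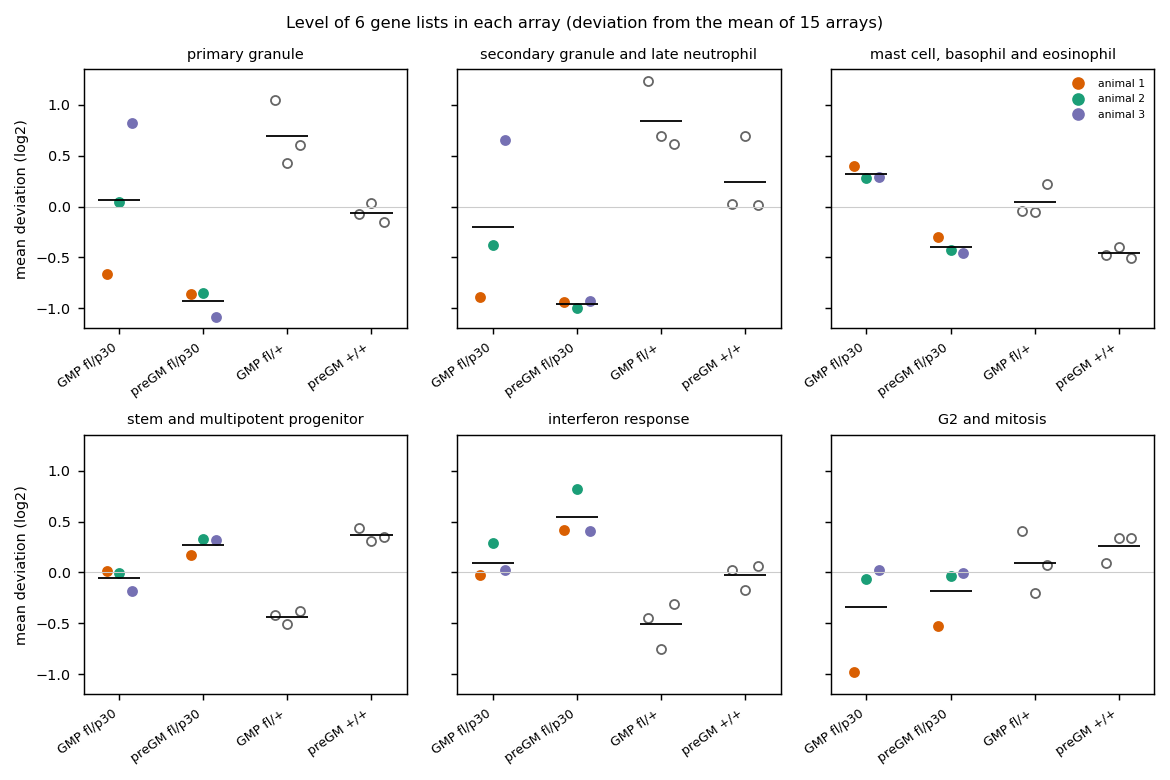
Mean deviation (log2) of the genes of 6 lists from their own 15-array means, 1 point per array and a bar at the group mean, in GMP fl/p30, preGM fl/p30, GMP fl/+ and preGM +/+; colours mark the fl/p30 animals. Primary granule genes lay at -0.67, 0.05 and 0.82 in GMP fl/p30, while mast cell, basophil and eosinophil genes lay at 0.28 to 0.40 there, above all arrays of the other 3 groups shown. GMP fl/BRM2 is not shown, so this height is not shown to be particular to GMP fl/p30.

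Proliferation genes were lowest in animal 1 at both stages. Of 23 genes of G2 and mitosis limma called 0 (2 at an unadjusted p under 0.05, against 18.6% of all genes), and the mean deviation of the list was -0.98, -0.06 and 0.02 in GMP fl/p30 against -0.52, -0.03 and 0.00 in preGM fl/p30. Cenpe, a centromere motor gene, had log2 levels of 8.18, 9.35 and 9.43 in GMP fl/p30 against 9.21, 9.71 and 9.89 in preGM fl/p30 (adjusted p = 0.13). Of 28 genes of DNA replication 1 rose, E2f8, a repressor of the E2F family, by 1.49-fold (adjusted p = 0.0169). Of 23 Myc and ribosome biogenesis genes 2 rose and 4 fell: Npm1, nucleophosmin, was 1.4-fold lower and Rrp9 and Bop1, factors of ribosomal RNA processing, were 1.45-fold and 1.39-fold higher (adjusted p = 0.019, 0.0381 and 0.0381). The 4 falls became 0 without either array of animal 1 and 1 without the preGM array of animal 3.

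Of 16 glycolysis and hypoxia genes 2 rose, the aldolase gene Aldoa by 1.6-fold and the lactate exporter gene Slc16a3 by 1.54-fold (adjusted p = 0.0297 and 0.049), and of 20 genes of protein folding and secretion Ssr2, a subunit of the translocon-associated complex, rose 1.89-fold (adjusted p = 0.0286). These 3 calls were each lost in at least 7 of the 9 leave-outs. In limma's test 0 genes were called of 15 in cholesterol synthesis, 23 in oxidative phosphorylation, 14 p53 targets, 18 immediate early and heat shock genes and 8 housekeeping genes. At an unadjusted p under 0.05 these lists held 6, 2, 3, 1 and 3 genes, in that order, where 18.6% of all genes did, and their median log2 differences lay between -0.04 and 0.23.

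Markers of other cell types were read for the whole lists. Of 20 erythroid and 13 megakaryocyte genes limma called 0 (4 and 3 at an unadjusted p under 0.05, against 18.6% of all genes), and the erythroid list deviated by 0.49, 0.23 and -0.01 in GMP fl/p30 and by 0.22, 0.13 and 0.15 in preGM fl/p30, highest in the GMPs of animal 1. Of 16 T and NK genes only Gzmb rose, the granule protease granzyme B, with log2 levels of 12.37, 11.88 and 11.55 in GMP fl/p30 against 10.83, 10.00 and 10.13 in preGM fl/p30 (3.06-fold, adjusted p = 0.00159). It was well above the array medians in all 6 arrays, while Cd3e, a defining T cell gene, had 6.27, 6.10 and 6.14 in GMP fl/p30 and 6.09, 6.16 and 5.88 in preGM fl/p30 on the log2 scale. Of 15 mature macrophage genes Cd163 fell, and of 13 stroma and endothelium genes Emcn fell, by log2 differences of -0.69 ± 0.12 and -0.83 ± 0.17, at levels near or below the array medians. The part of other cells in these results was not tested.

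Small nucleolar RNAs guide the modification of ribosomal RNA and are mostly cut from introns of genes for ribosomal and nucleolar proteins. Snord82 had log2 levels of 8.58, 9.60 and 9.14 in GMP fl/p30 against 10.36, 10.34 and 10.94 in preGM fl/p30. The stages did not overlap, and the log2 difference was -1.44 ± 0.21 (adjusted p = 0.00224). Snord73a had 4.95, 6.35 and 6.68 in GMP fl/p30 against 7.19, 7.86 and 7.46 in preGM fl/p30 on the log2 scale (adjusted p = 0.0411). The class was looked at after these 2 values were seen: of 53 small nucleolar RNA genes 4 fell and 1 rose, against 1.58% of all genes called lower and 1.84% called higher, with median log2 differences of -0.52, -0.71 and -0.61 in animals 1, 2 and 3. Over the same 53 genes the median of the control step was 0.60, where that of all genes was 0.085. In that step 1 of them was called higher and 0 lower, against 4.19% and 6.02% of all genes. An array probe set for such a gene can also detect the intron of its host transcript.

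The step in p30 mice was set against the same step in control mice, GMP fl/+ against preGM +/+. In control mice 2037 genes were called (10.2%), 836 higher (4.19%) and 1201 lower (6.02%), so 41% were higher, against 22.9% of 1993 calls with arrays centred on their medians. Of the 681 calls of the p30 step 229 were called in the same direction in control mice, 68 higher and 161 lower, which is 33.6% of the calls in p30 mice and 11.2% of those in control mice, and 5 were called in the opposite direction. The 2 steps share no arrays, but a gene past the threshold in one and not in the other is not shown to differ.

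The difference of the steps was therefore tested directly. It was called for 76 genes (0.381%), 69 higher (0.346%) and 7 lower (0.0351%) in p30 mice. All 69 had a negative step in control mice, which was itself called for 51, and in p30 mice 23 of them rose and 4 fell. All 7 rose in control mice, and limma called 0 of the 7 in p30 mice. The 4 groups of the contrast differ in more than stage and the p30 allele, since preGM +/+ and GMP fl/+ differ in genotype.

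Mmp8 was called for the difference of the steps, 2.98 ± 0.50 on the log2 scale (adjusted p = 0.0324). Most of its arrays were near or below the array medians, where the size of a log2 difference is uncertain. Beside its rise in p30 mice, its log2 level was 5.51, 4.85 and 5.34 in GMP fl/+ against 6.39, 7.51 and 6.09 in preGM +/+, lower in all GMP arrays (log2 difference -1.43 ± 0.38, adjusted p = 0.0322). Cx3cr1 had 7.33, 7.24 and 7.33 in GMP fl/+ against 7.97, 8.11 and 7.91 in preGM +/+, so that its groups stood in opposite orders in p30 and control mice; the steps differed by 2.57 ± 0.36 (adjusted p = 0.0271). Csf2rb2 had 7.15, 6.50 and 6.71 in GMP fl/+ against 7.28, 6.96 and 6.98 in preGM +/+, close together and overlapping, and its steps differed by 2.42 ± 0.45 (adjusted p = 0.0376).

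Ctla2a, an inhibitor of cysteine proteases, differed mainly through control mice. Its log2 level was 10.49, 10.26 and 9.62 in GMP fl/p30 and 10.99, 10.65 and 10.89 in preGM fl/p30, with a step of -0.72 ± 0.28 (adjusted p = 0.181), and 6.67, 7.31 and 6.11 in GMP fl/+ and 9.80, 10.02 and 9.87 in preGM +/+, with a step of -3.20 ± 0.34 (adjusted p = 0.000176). The stages did not overlap in either kind of mouse. Ly96, the MD-2 partner of the endotoxin receptor TLR4, and Ifi205, an interferon-inducible gene of the HIN-200 family, had steps of 0.88 ± 0.30 and 0.74 ± 0.35 in p30 mice that did not pass the test, against -1.74 ± 0.36 and -2.09 ± 0.42 in control mice. Dntt had a step of -6.20 ± 0.27 in control mice, and the steps differed by 1.90 ± 0.35 on the log2 scale (adjusted p = 0.0376). Its level was 4.83, 4.64 and 4.53 in GMP fl/+, dim in all 3 arrays, and its GMP fl/p30 levels lay near or below the array medians, so the size of that difference is uncertain.

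On the other side, Prss34, the basophil protease mMCP-11, had log2 levels of 6.23, 5.85 and 5.97 in GMP fl/p30 against 6.20, 5.80 and 5.83 in preGM fl/p30, overlapping and at or below the dim range. In control mice it had 7.03, 7.45 and 8.10 in GMP fl/+ against 5.63, 5.62 and 5.77 in preGM +/+, apart in all arrays. The steps differed by -1.77 ± 0.26 (adjusted p = 0.0271), while the mast cell, basophil and eosinophil list that holds it had a median step of 0.60 in p30 mice and 0.30 in control mice. Ccdc125, Slc28a2 (a concentrative nucleoside transporter), Neu1 (the lysosomal sialidase), Map3k15 (a kinase of the ASK family) and Lpl (lipoprotein lipase) were likewise called, with steps between -0.15 and 0.23 in p30 mice and between 0.78 and 1.57 in control mice.

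These calls were not stable: 0 genes were called for the difference without the preGM array of animal 1 or without any 1 of the 3 preGM +/+ arrays, 1 without the animal block or without the GMP array of animal 1, 3 and 8 without the GMP and the preGM array of animal 2, and 22 without the preGM array of animal 3. It was 6 without GMP fl/+ replicate 2 and 21 without replicate 3. It was 305 without the GMP array of animal 3 and 2156 without GMP fl/+ replicate 1. At an unadjusted p under 0.05 limma gave 3282 genes (16.5%) with all arrays.

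**Figure D5:**
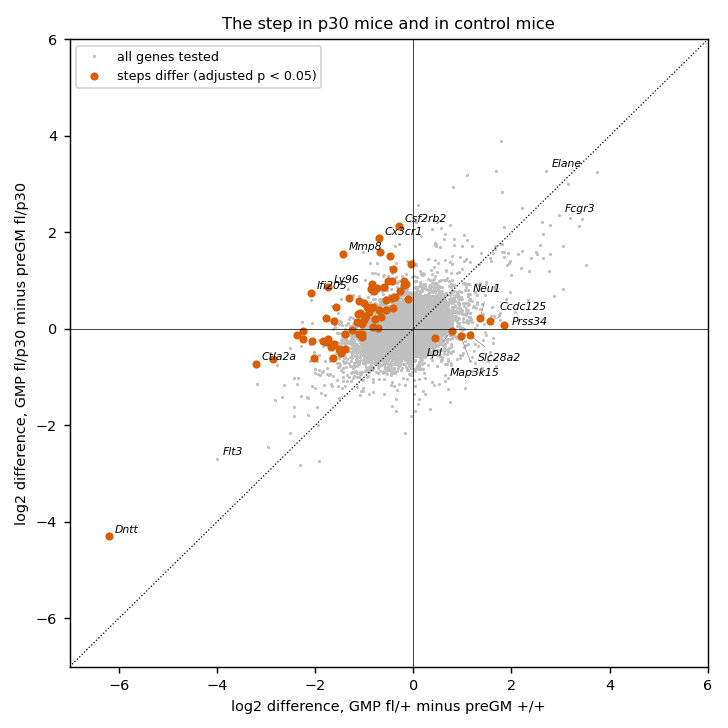
Log2 difference of each of 19937 genes in p30 mice (GMP fl/p30 minus preGM fl/p30, vertical axis) and in control mice (GMP fl/+ minus preGM +/+, horizontal axis), with the 76 genes whose steps differ in orange and the dotted line marking equal steps. The orange genes lie mostly above the line, at negative control steps, and Dntt lies at -4.30 in p30 mice and -6.20 in control mice.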

How the data were processed

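RNA of sorted progenitors was amplified and hybridised to Affymetrix Mouse Gene 1.0 ST arrays, per the labels' protocols. The deposited log2 values of 34760 probe sets on 15 arrays were made with RMA in affy by the authors, per the submitters' processing notes, with versions not given in the sources used here. RMA sets all arrays to 1 distribution, so a shift of all genes would not be seen. Of the probe sets 21640 had 1 symbol in the platform annotation, 1321 had several and 11799 were unnamed. For the 954 genes with several probe sets the one with the highest mean over all arrays was kept, which left 19937 genes.

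Levels were fitted with limma 3.58.1 in R 4.3.3 as 5 group means with the animal as a random block, and p-values are two-sided and adjusted by Benjamini-Hochberg. The block comes from the shared numbers in the titles. Deviations from the group means correlated at 0.334, 0.32 and 0.116 between the arrays of animals 1, 2 and 3. Between GMP and preGM arrays of different animals they ran from -0.308 to 0.154. The highest of these, GMP of animal 3 with preGM of animal 2, exceeded the value within animal 3. Deviations cancel out within each group, so positive values within animals push those between animals down. The values between animals are therefore no independent reference for the block. With 3 pairs an exact sign-flip test cannot go below 0.25, so none was run. Labels do not say that amplifications were separate beyond the animals.

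Genes are named by rule: the 15 largest called rises and falls with the same sign in 3 animals and a regular gene symbol; up to 4 called members of each of 32 lists, or 2 where none was called; the sort gate and C/EBP family; and the 6 highest and 6 lowest called differences of the steps. Mpo, Irf8, Gata2, Cd34, Prtn3, Ctsg and Cd3e are marker or list genes given beside these. The members and lists were chosen with earlier results of these data known. Lists overlap: Flt3 is in 3 of them, and Meis1, Slamf1, Gata2, Cx3cr1, Itgax and Myc are in 2 each. Counts and medians describe the lists, and no set test was run. Alternatives were the block, moderation, weights, centring, level filter, probe set choice, fold threshold, fits to the 6 fl/p30 arrays and leaving out each array or animal. The fit was tested on simulated data in which each gene had the same spread in all arrays. That test does not cover the uneven spread of these arrays.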

Additional observations from a re-analysis of the deposited data

Results flagged for a closer look

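The test of the difference between the step in p30 mice and the step in control mice called 76 genes. Those with the largest positive log2 differences of the steps were Mmp8 (2.98), Ifi205 (2.83), Ly96 (2.62), Cx3cr1 (2.57), Ctla2a (2.48) and Csf2rb2 (2.42). Those with the largest negative ones were Prss34 (-1.77), Ccdc125 (-1.41), Slc28a2 (-1.30), Neu1 (-1.14), Map3k15 (-1.11) and Lpl (-0.82). Each stands out because its change between the stages differed between the 2 kinds of mice in limma's test of that difference. The control stages also differ in genotype, and the p30 allele and that genotype difference cannot be told apart here.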

How the results depend on the processing

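For the step in p30 mice, 681 genes were called. The count was 128 without the replicate block, 3292 with array weights, 434 with arrays centred on their medians and 143 at a log2 difference of at least 1. Fits to the 6 fl/p30 arrays called 71 with a fixed replicate block and 29 with none, and a fixed replicate block in all 15 arrays, chosen after seeing the data, called 172. A trend in the moderation gave 613, a mean level of at least 6 gave 668 and the mean of all probe sets 704. Counts ran from 103 to 722 with 1 array left out, and from 84 to 362 with both arrays of an animal left out. For the control step, 2037 genes were called, with 4598 under array weights, 450 at a log2 difference of at least 1 and 612 to 4661 over the leave-outs; centring gave 1993, 22.9% of them higher, against 41% as deposited. For the difference of the steps, 76 were called, with 1 without the replicate block, 2587 with array weights and 0 to 2156 over the leave-outs. The share of promoters with the C/EBP motif among genes called higher was 13.25%, and 2.651% under a stricter motif (interval 1.33% to 4.693%), which stood in 1.956% of all windows, inside that interval. Signs turned for uncalled genes: Kit was -0.057 with array weights, -0.029 with centring and -0.144 to 0.1 over the leave-outs, and Cebpa 0.145 with array weights and -0.197 to 0.262 over the leave-outs. Over the leave-outs Prss34 ran from -0.019 to 0.194, Slc28a2 from -0.293 to 0.023, Lpl from -0.103 to 0.052 and Ccdc125 from -0.034 to 0.335. Of the 70 called genes among those named, 37 lost the call without the replicate block, 19 with centring, 47 and 59 in the 6 fl/p30 arrays with and without a fixed block, and 32 with a fixed block in all 15 arrays. The cause of these shifts was not tested. Dim genes carry little signal over background.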

Other observations

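Of 297 microRNA genes on the array 7 fell and 0 rose in limma's test of the step in p30 mice, against 1.58% of all genes called lower, with a median log2 difference of -0.01 where the median of all genes was 0.03. In the control step 19 rose and 1 fell, against 4.19% of all genes called higher and 6.02% called lower. The median was 0.17 in that step, where that of all genes was 0.085. The difference of the steps was not tested for the class. The class was looked at after values were seen. Mir677 had log2 levels of 6.12, 6.88 and 7.19 in GMP fl/p30 of animals 1, 2 and 3, against 7.20, 8.19 and 8.46 in preGM fl/p30, lower in each animal and without overlap, by a narrow margin. Mir181b-2, of a microRNA family known from lymphoid development, had 4.98, 5.96 and 5.67 in GMP fl/p30 against 6.67, 6.86 and 6.38 in preGM fl/p30, without overlap. These probe sets read the hairpin region of precursor transcripts, and the mature microRNAs were not measured.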
